A study of Mus musculus with 6 samples.

Results

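Imprinted genes are expressed mainly or only from the copy inherited from the mother or from the father. A list of 35 mouse imprinted genes was followed through the comparison of mouse embryonic stem cells sorted by a MERVL reporter. The authors' deposited table of that comparison holds 17110 genes, and 33 of the 35 were found in it by name. Zrsr1 was found by its Ensembl identifier under the newer name Zrsr2-ps1, which brings the members to 34. Airn, the noncoding RNA that silences Igf2r on the paternal copy, had no row and is not analysed here. By the parental copy that is generally expressed, 19 of the 34 were classed as paternal and 13 as maternal. Which copy each gene uses in these cells, or whether it uses both, was not measured. Gnas and Grb10 use different copies for different transcripts or tissues and were kept apart.

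The cells are of the line given as TG2A in the labels, carry a fluorescent protein gene under MERVL control, and were grown with serum and leukemia inhibitory factor. MERVL is an endogenous retrovirus active in the mouse embryo after its first division and in a small fraction of cultured stem cells, so the reporter marks cells by that promoter's activity and not by any imprinted gene. Sorting gave a DsRed2+ group and a DsRed2- group of 3 biological replicates each, collected on separate dates, from the same line and medium. Polyadenylated RNA was sequenced. The table gives 1 fold change a gene for the sorted groups, taken to be the groups compared because the labels list no others. It states neither group names nor which group is the numerator, so every sign below is as deposited. A negative value means lower expression in a group that the table does not name. The 6 count columns carry names that match no sample, so values per sample are not analysed here, and each error, written after ±, is the authors' standard error.

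Imprinted genes lie in clusters, each governed by a control region that is methylated on the copy from 1 parent. Inside a cluster, paternally and maternally expressed genes often alternate, and a long noncoding RNA expressed from the unmethylated copy often silences its neighbours. Many paternally expressed genes promote fetal and placental growth and many maternally expressed genes restrain it. Total RNA does not separate the parental copies, so a fold change here can come from either copy. In bulk samples, fewer expressing cells and less RNA per cell cannot be told apart.

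Of the 34 imprinted genes, 18 were called in the authors' deposited table, which here means an adjusted p-value under 0.05, while 30.5% of all its genes were. The calls were almost all negative. In the authors' deposited table, 16 members (47.1%) were negative and past the threshold, against a background of 15.9%, and only 2 (5.88%), Phlda2 and Mcts2, were positive and past it, against 14.6%. Centring the fold changes on 195 genes with ribosomal protein names shifted every gene by 0.13 on the log2 scale. It changed that background to 23.1% negative and 9.85% positive, and 17 members were then called negative and 0 positive. Those 195 genes include pseudogenes and kinases. The 79 without them were chosen after seeing the data. Centred on these 79, 17 members were called negative and 1 positive, against 21.0% and 10.7% of all genes. The sizes of the negative calls ran from 1.25-fold for Grb10 to 11.9-fold for Igf2. With an absolute log2 fold change over 0.5 as well, which is the limit behind the authors' own column of changed genes, 15 members stayed negative against 12.1% of all genes, and 0 stayed positive. The median log2 fold change in the authors' deposited table was -0.39 over the members and 0.0097 over all genes.

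The calls were spread unevenly over the parental classes. Of the 19 paternally expressed genes, 12 (63.2%) were called negative and 1 positive in the authors' deposited table, against 15.9% and 14.6% of all genes, and their median log2 fold change was -0.90. Of the 13 maternally expressed genes, 2 (15.4%) were called negative, a share near the background, and 1 positive, and their median was -0.0068. After ribosomal centring the medians were -1.03 for the paternal and -0.14 for the maternal genes. Below 0, called or not, were 17 of the 19 paternal genes (89.5%) and 7 of the 13 maternal genes (53.8%), against 49.0% of all genes. The maternal share was thus near the background. Gnas and Grb10, the genes of mixed origin, were both called negative. The difference between the classes was not tested, since genes of 1 cluster share regulation and the list was drawn up with results of these data known. Leaving out each cluster of several genes in turn moved the paternal median between -0.94 and -0.85 and the maternal median between -0.012 and -0.0024.

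**Figure D1:**
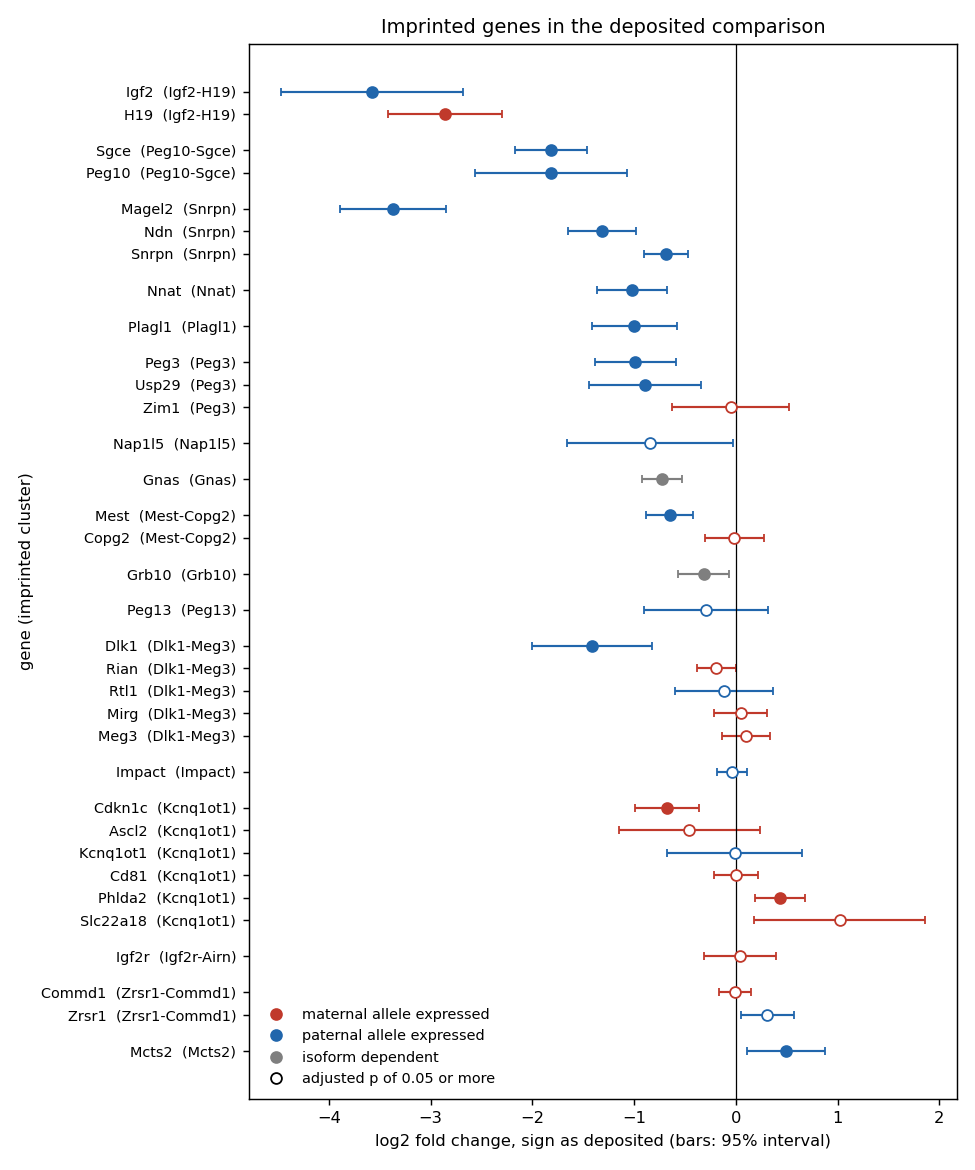
Log2 fold change of the 34 imprinted genes with its 95% interval (x axis, sign as deposited), grouped by imprinted cluster (y axis) and coloured by the parental copy that is generally expressed. Open circles did not pass an adjusted p-value of 0.05. The paternal genes lie mostly left of 0, from Igf2 at -3.58 to Mcts2 at 0.49, while 10 of the 13 maternal genes are open circles. In either direction, 68.4% of the paternal and 23.1% of the maternal genes were called, against 30.5% of all genes.

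Only 2 members, Nap1l5 and Ascl2, had a mean normalized count under 50, and neither was called. Among genes with at least 50, 16 of 32 members were called negative, against a background of 17.5%. Per kilobase of the longest annotated transcript, the mean normalized count was highest for Snrpn at 5261, Peg10 at 3987 and Mest at 3465, and all 3 are paternally expressed and negative. The maternal genes Phlda2 and Rian followed at 2358 and 2095 per kilobase. At the low end stood Rtl1 at 12.6, Zim1 at 7.67 and Kcnq1ot1 at 2.32 per kilobase, and none of these 3 was called. Negative calls were made in abundant genes and in sparse ones such as Dlk1, at 21.7 per kilobase.

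**Figure D2:**
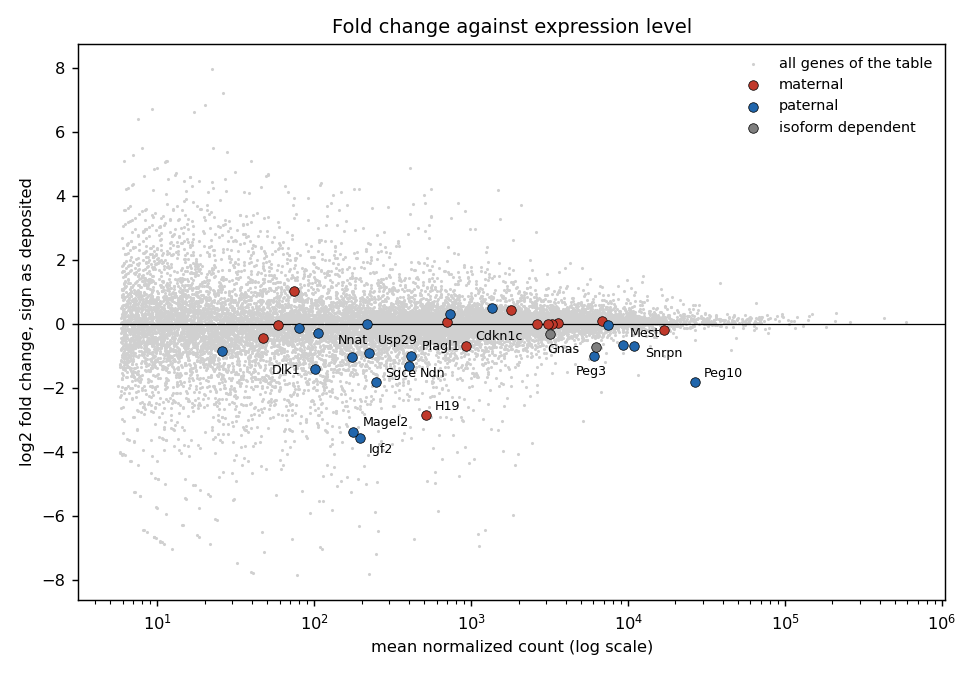
Log2 fold change (y axis, sign as deposited) against mean normalized count (x axis, log scale) for all 17110 genes in grey, with the imprinted genes coloured by parental class. Named points passed an adjusted p-value of 0.05 and an absolute log2 fold change of 0.5. All 15 named genes lie below 0, and Peg10, at a mean count of 26582, lies far below the narrow grey band of abundant genes.

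The 2 members with the most negative values after Igf2 itself were Magel2 and H19, and the 3 members of the Snrpn cluster, which holds Magel2, were all called negative. They are paternally expressed and lie on chromosome 7, in the mouse counterpart of the Prader-Willi region. Magel2 and Ndn encode related proteins of the MAGE family, adaptors of ubiquitin ligases, and Snrpn encodes a core protein of the splicing machinery. In the authors' deposited table, Magel2 had a log2 fold change of -3.37 ± 0.27 (adjusted p-value 2.58e-34) at a mean count of 177.2. Ndn stood at -1.31 ± 0.17 (adjusted p-value 4.57e-13) in the authors' deposited table, at a mean count of 400.5. The far more abundant Snrpn, at a mean count of 10922, stood at -0.69 ± 0.11 (adjusted p-value 4.76e-09). The intervals of the 3 genes do not meet: -3.89 to -2.85 for Magel2, -1.65 to -0.98 for Ndn and -0.90 to -0.47 for Snrpn. Distance along the chromosome orders them Snrpn, Ndn, Magel2, which is also the order of their sizes.

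Other imprinted genes of the same region were read from a separate list and gave a mixed picture. Snurf, read from the same transcript as Snrpn, stood at -1.31 ± 0.32 in the authors' deposited table. Snhg14, the long host RNA of small nucleolar RNAs that begins at the same promoter, stood at -0.96 ± 0.14. These 2 overlap Snrpn, so how reads were divided among the 3 is uncertain. Beyond Magel2, Peg12 stood at -2.50 ± 0.45, but the paternally expressed ubiquitin ligase gene Mkrn3, which lies between them, stood at -0.025 ± 0.26 and was not called. The maternally expressed Ube3a at the other end was not called either, at -0.12 ± 0.099, while its neighbour Atp10a stood at -1.79 ± 0.21.

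The promoters of Magel2 and Ndn are shown because both are intronless genes of 1 cluster that were negative to different degrees. Each window runs from 250 bases before the start of transcription to 50 after it, 5′ to 3′ on the strand of the gene, from RefSeq on build GRCm38.p6, and CG dinucleotides are in capitals. The Magel2 window is chr7:62376729-62377028 on the plus strand and the Ndn window is chr7:62348027-62348326 on the plus strand.
Magel2: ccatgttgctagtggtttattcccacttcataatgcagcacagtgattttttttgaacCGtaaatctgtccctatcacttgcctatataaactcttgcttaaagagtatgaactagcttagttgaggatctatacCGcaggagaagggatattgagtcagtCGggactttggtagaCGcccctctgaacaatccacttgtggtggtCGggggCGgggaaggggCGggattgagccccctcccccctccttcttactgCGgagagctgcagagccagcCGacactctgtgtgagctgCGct
Ndn: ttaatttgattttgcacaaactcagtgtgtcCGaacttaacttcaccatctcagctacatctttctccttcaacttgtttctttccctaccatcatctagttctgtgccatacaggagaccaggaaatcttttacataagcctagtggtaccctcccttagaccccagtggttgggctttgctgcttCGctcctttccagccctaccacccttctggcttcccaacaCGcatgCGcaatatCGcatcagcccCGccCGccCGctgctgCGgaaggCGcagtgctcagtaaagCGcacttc
The windows hold 10 and 11 CG dinucleotides, most of them in the part of the window nearer the start. The median over all 32851 promoter windows of this length was 7, and over the 42 member windows used, which leave out Impact, it was 15.

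Igf2 and H19 share a cluster on chromosome 7 and were both strongly negative although they are expressed from opposite parental copies. Igf2 is the paternally expressed fetal growth factor, and H19 is a maternally expressed long noncoding RNA; they are known to share enhancers that an insulator directs to 1 gene on each chromosome. In the authors' deposited table, Igf2 had a log2 fold change of -3.58 ± 0.45 (adjusted p-value 1.14e-13) at a mean count of 194.2. H19 had -2.86 ± 0.29 (adjusted p-value 8.09e-22) in the authors' deposited table, at a mean count of 514.6. In linear terms these are 11.9-fold and 7.25-fold, and their intervals overlap, from -4.47 to -2.69 for Igf2 and from -3.42 to -2.30 for H19. H19 was the only long noncoding RNA called among the 6 listed ones with a row. Igf2r, the maternally expressed receptor that binds and clears the Igf2 protein, was not called at 0.040 ± 0.18, and its interval ran from -0.31 to 0.39.

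The neighbouring Kcnq1ot1 cluster, a short distance further along chromosome 7, showed no shared direction. Kcnq1ot1 is a paternally expressed noncoding RNA that silences the protein-coding genes of its cluster on the paternal copy. It was not called, at -0.010, but its standard error of 0.34 allows a log2 fold change from -0.67 to 0.65. Cdkn1c, an inhibitor of cyclin-dependent kinases, was negative at -0.68 ± 0.16 (adjusted p-value 0.000229) in the authors' deposited table. Phlda2, which restrains placental growth, was positive at 0.43 ± 0.13 (adjusted p-value 0.00331). This was the only one of 8 clusters with several measured members that held calls in both directions. The call of Phlda2 was narrowly lost when fold changes were centred on ribosomal protein genes, at 0.30 and an adjusted p-value of 0.0527. That set includes pseudogenes and kinases, and with these left out of it, 1 positive call among the members stayed.

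The other maternal genes of that cluster were not called. Slc22a18, a transporter gene next to Phlda2, had the highest value of any member, 1.02, with a standard error of 0.43 and an adjusted p-value of 0.0566. Ascl2, a transcription factor of the trophoblast, had -0.46 ± 0.35 at a mean count of 47.1. Cd81, which encodes a tetraspanin, had 0.0020 ± 0.11, and its interval from -0.21 to 0.22 leaves room for small differences only.

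Peg10 and Sgce, paternally expressed neighbours on chromosome 6, had nearly the same fold change at very different levels. Peg10 derives from a retrotransposon and is needed for the placenta, and Sgce encodes epsilon-sarcoglycan; the genes are transcribed away from each other from adjacent starts. In the authors' deposited table, Peg10 had a log2 fold change of -1.81 ± 0.38 (adjusted p-value 1.85e-05), and Sgce had -1.82 ± 0.18 (adjusted p-value 2.17e-22). Both correspond to 3.52-fold. Their mean counts were 26582 and 246.9. Among 603 genes whose mean count reached 10000, Peg10 had the lowest fold change, a comparison chosen after its value was seen. Its standard error is wide for such a level: Snrpn, at a lower mean count, had 0.11.

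The surrounding genes of this region did not move as a block. Casd1, next to Sgce, stood at -0.42 ± 0.13 in the authors' deposited table. On the other side of Peg10, Ppp1r9a was not called at 0.15 ± 0.13, while Pon2 and Asb4 further out stood at -1.68 and -2.55 with standard errors of 0.18 and 0.46. Calcr, the calcitonin receptor gene, stood at -4.46 ± 0.33. Several of these genes are known to be imprinted only in some tissues.

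**Figure D3:**
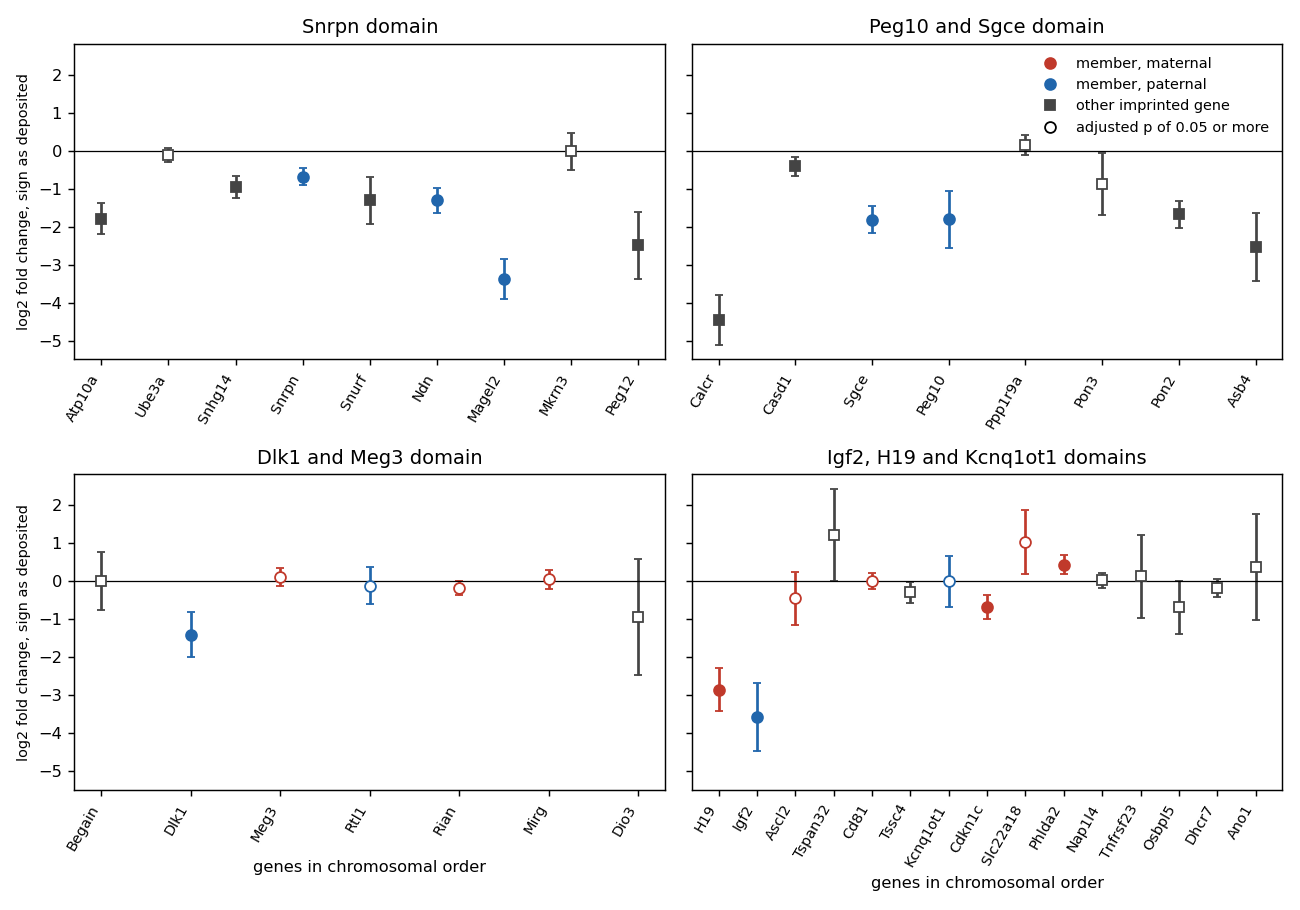
Log2 fold change with its 95% interval (y axis, sign as deposited) for imprinted genes in chromosomal order (x axis) in 4 domains; circles are members, squares are other imprinted genes, and open symbols did not pass an adjusted p-value of 0.05. In the Snrpn domain Ube3a and Mkrn3 are open beside filled neighbours, in the Dlk1 and Meg3 domain only Dlk1 is filled, and in the last panel Igf2 and H19 stand well below the Kcnq1ot1 cluster.

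Peg3 and Usp29, paternally expressed and transcribed in opposite directions on chromosome 7, were also negative together. Peg3 encodes a zinc-finger protein and Usp29 a ubiquitin-specific protease. In the authors' deposited table, Peg3 had a log2 fold change of -0.99 ± 0.20 (adjusted p-value 1.25e-05) and Usp29 had -0.90 ± 0.28 (adjusted p-value 0.00661). Their mean counts were 6037 and 222.4. The maternally expressed zinc-finger gene Zim1 beside Peg3 was not called, at -0.049 ± 0.29 and a mean count of 59.0, and its interval from -0.62 to 0.53 overlaps those of Peg3, from -1.39 to -0.59, and Usp29, from -1.45 to -0.35.

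The promoter of this pair is shown because a single short stretch serves both genes. The RefSeq starts of Peg3 and Usp29 lie 163 bases apart, and 263 bases of their windows are shared. The Peg3 window is chr7:6730370-6730669 (GRCm38.p6) on the minus strand, and capitals mark the bases between the starts.
Peg3: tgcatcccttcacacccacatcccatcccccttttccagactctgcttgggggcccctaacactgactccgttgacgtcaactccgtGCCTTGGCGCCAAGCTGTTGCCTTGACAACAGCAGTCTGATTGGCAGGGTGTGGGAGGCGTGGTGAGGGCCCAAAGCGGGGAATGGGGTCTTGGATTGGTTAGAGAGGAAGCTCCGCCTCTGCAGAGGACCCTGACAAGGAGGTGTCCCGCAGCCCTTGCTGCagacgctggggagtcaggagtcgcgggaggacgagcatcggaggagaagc

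The Dlk1 and Meg3 cluster on chromosome 12 held 1 called gene among 5. Dlk1, a paternally expressed membrane protein related to Notch ligands, had a log2 fold change of -1.41 ± 0.30 (adjusted p-value 2.38e-05) in the authors' deposited table, at a mean count of 100.8. The maternally expressed noncoding RNAs of the cluster are made in quantity in stem cells with an intact imprint, and none of the 3 was called. Meg3 had 0.099 ± 0.12 at a mean count of 6799 in the authors' deposited table. Rian, a host of small nucleolar RNAs, had -0.19 ± 0.096 at a mean count of 16946. Mirg, a host of microRNAs, had 0.046 ± 0.13 at a mean count of 701.8. Their intervals, from -0.14 to 0.34, from -0.38 to -0.0024 and from -0.21 to 0.30, all end well short of the interval of Dlk1, from -2.00 to -0.82. Rtl1, the paternally expressed retrotransposon-derived gene between Meg3 and Rian, had -0.12 ± 0.24. Transcripts antisense to Rtl1 run through it, and since strand use in the counting is not stated, its reads cannot be told apart from theirs. With fold changes centred on ribosomal protein genes, Rian was called at -0.32 (adjusted p-value 0.00367), and Meg3 and Mirg turned to -0.033 and -0.086 without a call.

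The paternally expressed genes Mest, Plagl1 and Nnat, from 3 separate clusters, were negative. Mest encodes an enzyme of the hydrolase fold, Plagl1 a zinc-finger transcription factor that regulates other imprinted genes, and Nnat a small membrane proteolipid of neurons. In the authors' deposited table, Mest had a log2 fold change of -0.65 ± 0.12 (adjusted p-value 5.86e-07), Plagl1 had -0.996 ± 0.21 (adjusted p-value 3.14e-05), and Nnat had -1.02 ± 0.18 (adjusted p-value 8.42e-08). Their mean counts were 9235, 413.1 and 173.4. Gnas, which encodes the stimulatory G protein subunit and several imprinted transcripts, had -0.73 ± 0.098 (adjusted p-value 3.57e-12). Grb10, an adaptor that damps insulin and growth factor receptor signalling, was close to the threshold, at -0.32 ± 0.13 (adjusted p-value 0.0473).

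The promoters of Mest, Plagl1 and Nnat are shown because each holds the sequence TGCCGC, which the imprint-protecting protein Zfp57 binds when it is methylated. The windows are chr6:30737800-30738099, chr10:13090582-13090881 and chr2:157559828-157560127 in GRCm38.p6, all on the plus strand and of the same extent. Capitals mark TGCCGC on either strand, so the other strand's form reads GCGGCA.
Mest: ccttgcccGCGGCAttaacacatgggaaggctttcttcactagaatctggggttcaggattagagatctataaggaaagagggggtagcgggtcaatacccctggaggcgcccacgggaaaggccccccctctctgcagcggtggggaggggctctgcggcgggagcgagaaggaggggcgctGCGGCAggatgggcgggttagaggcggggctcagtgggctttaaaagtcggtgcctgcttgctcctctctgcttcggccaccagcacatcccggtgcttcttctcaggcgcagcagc
Plagl1: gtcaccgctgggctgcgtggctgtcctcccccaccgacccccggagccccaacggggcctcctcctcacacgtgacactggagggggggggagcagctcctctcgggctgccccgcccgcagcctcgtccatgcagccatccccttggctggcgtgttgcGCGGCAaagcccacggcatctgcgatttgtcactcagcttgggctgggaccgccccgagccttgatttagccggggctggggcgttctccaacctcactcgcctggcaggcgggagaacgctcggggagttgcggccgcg
Nnat: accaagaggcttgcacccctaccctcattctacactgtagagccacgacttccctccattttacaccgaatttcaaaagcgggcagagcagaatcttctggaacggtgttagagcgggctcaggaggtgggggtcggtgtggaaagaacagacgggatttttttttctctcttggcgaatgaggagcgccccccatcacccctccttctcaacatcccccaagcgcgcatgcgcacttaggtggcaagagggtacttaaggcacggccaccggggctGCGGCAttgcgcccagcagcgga
The Mest window, of the second of its 3 listed starts, holds 2 matches, and the others hold 1 each. RefSeq windows were found for 28 of the listed genes, Airn included, and 12 of these genes (42.9%) had a match in some window. Over all 27025 genes with windows of 300 bases, 13.1% had a match in some window. Counted by window, the share with a match was 11.6% over all windows, against 31.0% of the 42 member windows. Member windows are also richer in CG dinucleotides, which the motif contains. Among called members with a window used, 7 of 14 had a match, and among such members not called 5 of 13 did. These shares were not tested, and a match does not show binding.

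Several paternally expressed members lie inside or beside a partner gene, and the values of the partners are given with theirs. Nnat lies in an intron of Blcap, which was not called at 0.19 ± 0.11 in the authors' deposited table, on the other side of 0 from Nnat. Mest ends against Copg2, a coat protein gene expressed from the maternal copy, which stood at -0.016 ± 0.15. The genes overlap at their ends, and the division of reads between them is uncertain. Mcts2, a retrogene in an intron of H13, was the only paternal gene called positive, at 0.49 ± 0.20 (adjusted p-value 0.0400), while H13 stood at -0.19 ± 0.14 in the authors' deposited table. Mcts2 is a near-copy of Mcts1, so its count could include reads of that gene, and its call was lost at an adjusted p-value threshold of 0.01 and after ribosomal centring, at 0.36 and an adjusted p-value of 0.152.

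The remaining members of this kind were not called. Zrsr1, a splicing-factor retrogene in an intron of Commd1, had 0.31 ± 0.13 (adjusted p-value 0.0649) in the authors' deposited table, and Commd1 had -0.0068 ± 0.079. Nap1l5, a retrogene in Herc3, had -0.85 ± 0.42 at the lowest mean count of any member, 25.6, while Herc3 had -0.42 ± 0.21. Peg13, a noncoding RNA inside Trappc9, had -0.29 ± 0.31, and Trappc9 had 0.31 ± 0.19. Impact, a regulator of translation on chromosome 18, was the most precisely measured member, at -0.039 ± 0.074, an interval from -0.18 to 0.11.

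Genes beyond the outermost members of each cluster were read to see whether the negative values ran past the members. The nearest 3 genes with a row on each side, listed imprinted genes left out, came to 98 genes in RefSeq gene order. Each cluster was bounded by its own members, so a flanking gene can still lie among other imprinted genes. R74862 and Trpm5, counted as flanks of Igf2 and H19, lie before the far end of the Kcnq1ot1 cluster. Of these, 14 were called negative and 14 positive in the authors' deposited table, 14.3% each, and their median log2 fold change was 0.029. The flanking genes were thus close to the background of all genes in both directions. Strongly negative genes did occur among them, such as Podxl near Mest at -2.37 ± 0.12 and Col1a2, also a fibroblast marker, near Sgce at -4.85 ± 1.22; these 2 were picked out after their values were seen.

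A list of 64 other imprinted genes, some of them imprinted only in the placenta or in other tissues, had 48 with a row. Of these, 12 (25.0%) were called negative and 7 (14.6%) positive in the authors' deposited table, against 15.9% and 14.6% of all genes. The positive share was thus that of the background. The median log2 fold change was -0.12. The 4 with the smallest p-values were Cobl at 1.41, Calcr at -4.46, Ddc at 1.96 and Gatm at -2.71, with standard errors of 0.097, 0.33, 0.15 and 0.29. Cobl and Ddc flank Grb10 and were both positive, opposite to Grb10. Zfp264, singled out after its value was seen, had the highest value of the list, 5.36 ± 0.98 at a mean count of 27.6. The difference between this list and the members was not tested.

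Factors that protect or erase imprints had more positive than negative calls. All 28 listed factors had a row. The authors' deposited table called 12 of them (42.9%) positive, against 14.6% of all genes, and 5 (17.9%) negative, which is near the 15.9% of all genes; the median log2 fold change was 0.19. The 4 with the smallest p-values were Zfp42 at 1.10, Zfp57 at 1.36, Dnmt3l at 1.73 and Tet1 at 0.83, with standard errors of 0.092, 0.13, 0.18 and 0.091. Zfp57 recruits Trim28 to methylated control regions, Dnmt3l is a cofactor of DNA methylation, Tet1 oxidises methylated cytosine, and Zfp42 is a pluripotency marker that binds some imprinted genes. Trim28 stood at 0.65 ± 0.13 and the maintenance methyltransferase Dnmt1 at 0.39 ± 0.065 in the authors' deposited table. Among the 5 negative factors, Dppa3, which shields methylation after fertilisation, stood at -0.76 ± 0.19 and Tet3 at -0.57 ± 0.14. DNA methylation was not measured, and any link between these factors and the imprinted genes was not tested.

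**Figure D4:**
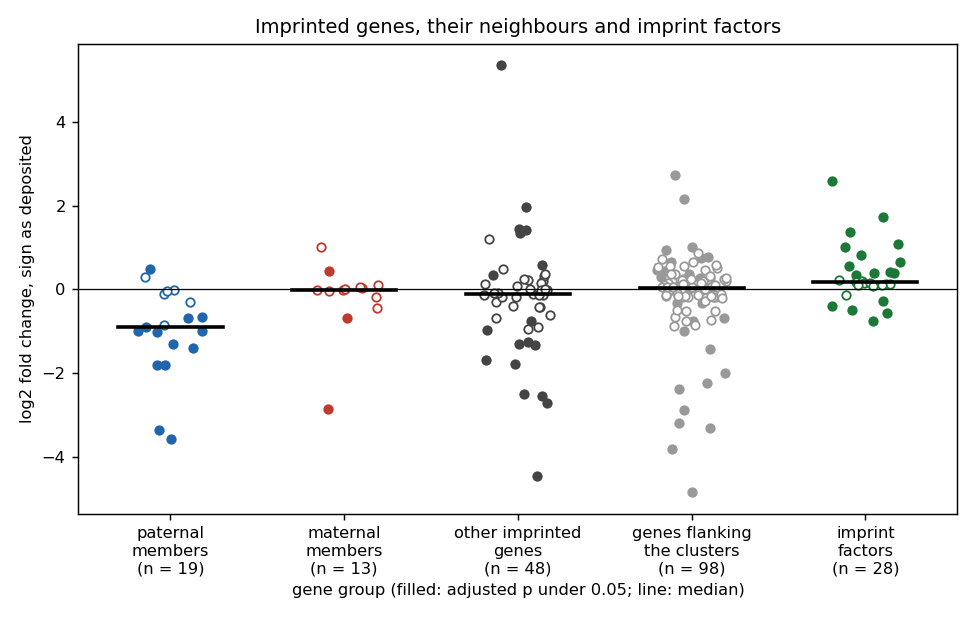
Log2 fold change (y axis, sign as deposited) of paternal members, maternal members, other imprinted genes, genes flanking the clusters and imprint factors (x axis); each point is a gene, filled where its adjusted p-value was under 0.05, and the line is the group's median. The medians are -0.90, -0.0068, -0.12, 0.029 and 0.19 from left to right.

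Most markers of trophectoderm and fibroblasts with a row were called negative, most of pluripotent cells positive, and most of primitive endoderm were not called. Over all genes, 14.6% were called positive and 15.9% negative. Of the 13 pluripotency markers, 9 were called positive and 0 negative in the authors' deposited table, and all 13 had a row, with high levels such as a mean count of 32810 for Pou5f1. Of 9 trophectoderm markers, 8 had a row, all below 0, with 6 called negative and a median log2 fold change of -3.09. Of 14 fibroblast markers, 9 had a row, with 6 called negative, 0 positive and a median of -1.76. Of the listed collagens with a row, Col1a1, Col1a2 and Col6a1 were near the floor of the table, with mean counts of 20.9, 10.1 and 7.15. Col5a1 had a mean count of 309.0 and was called negative, at -1.38 ± 0.24, and Tagln had a mean count of 1849. Primitive endoderm markers gave 1 call in each direction among 6 with a row. Igf2, H19 and Dlk1 are known to be expressed in differentiated and extraembryonic cells, and the part of such cells in the results was not tested. Of 14 markers of the MERVL-positive state only Calcoco2 and Eif1a had a row used here, both called positive, at 3.10 and 0.26; they do not settle which group is the numerator.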

How the data were processed

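Polyadenylated RNA of 2 groups of 3 samples was sequenced. Per the submitters' processing notes, the tools used by the authors were FastQC 0.12.1, Trimmomatic 0.39, STAR 2.7.11b, RSEM 1.3.3 and DESeq2 1.45.3 with build GRCm39; their settings, the annotation and the model, including any term for collection date, are not given in the sources used here. Per the file headers, the authors' deposited table holds a mean normalized count for each gene (a signal pooled over libraries), a log2 fold change and its standard error on the log2 scale, a Wald statistic (a score) and a p-value with its adjusted p-value. All were used as deposited, and a gene was called at an adjusted p-value under 0.05. Because the 6 count columns match no sample label, only their gene identifiers were read, edgeR was not run, and library depth is unknown here. The planned values per library and fits of counts were therefore left out.

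Intervals of 95% are the fold change plus or minus the normal quantile times the standard error. Centred fold changes were tested again with the deposited standard errors and Benjamini-Hochberg adjustment (SciPy 1.17.1), a step tested on simulated data. Lengths came from GENCODE M21, gene order and promoters from RefSeq GRCm38.p6, which is not the authors' build, so no coordinate was joined to their data. Other imprinted genes within 3 Mb of a cluster were shown with it. The members, parental classes, lists and tests were chosen with earlier results of these data known. All members were to be named, and the 4 genes with the smallest p-values of the lists of other imprinted genes and of imprint factors; their neighbours within a cluster and other genes of these lists were named after their values were seen. The alternatives were other thresholds, a minimum mean count of 50, other centres, and leaving out each cluster. P-values measure the spread between samples as the authors fitted it.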

Additional observations from a re-analysis of the deposited data

How the results depend on the processing

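No paired analysis was possible because no column of counts could be tied to a replicate and the comparison table pools all libraries; fits without each replicate, other normalizations and count filters were not run for the same reason, so whether 1 library decides a value is unknown here. The 16 negative calls came to between 15 and 17 under an adjusted p-value of 0.01, a limit of 0.5, a minimum mean count of 50, recomputed adjustment and every centring, and to 8 at an absolute log2 fold change over 1, as the limit itself produces. The 2 positive calls fell to 1 at an adjusted p-value of 0.01, to 0 at limits of 0.5 and 1, to 0 when centred on the 195 genes named Rpl or Rps with a number (a shift of 0.13 on the log2 scale), and to 1 when centred on 79 of them without pseudogenes and kinases (a shift of 0.10, chosen after seeing the data). Centring on those 195 genes called 23.1% of all genes negative, against 15.9% as deposited. After that centring Igf2r stood at -0.092, Meg3 at -0.033, Mirg at -0.086 and Cd81 at -0.13, and Cd81 at -0.0077 when centred on all genes; these turned sign without a call on either side. It also moved the maternal median to -0.14 and the paternal to -1.03. Values of single members were listed for centring on all genes, centring on those 195 genes, and an adjusted p-value threshold of 0.01. Among these, 92 kept direction and call, 5 turned sign, 4 lost a call and 1 gained it. The threshold of 0.01 can neither move a fold change nor add a call, so part of the 92 was fixed beforehand. The causes were not tested.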

Other observations

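Some genes are imprinted in the early embryo and placenta through histone methylation in the egg and not through DNA methylation. Of 5 such genes in the list of other imprinted genes, grouped after their values were seen, 4 were called in the authors' deposited table. The calls were not in 1 direction. Of all genes 30.5% were called, and 33.9% of those with a mean count of at least 50. Sfmbt2, a Polycomb protein gene needed in the trophoblast, had a log2 fold change of -1.26 ± 0.21 (the error is the authors' standard error). Smoc1, which encodes a secreted matrix protein, stood at 1.36 ± 0.15, Gab1, a signalling adaptor, at 0.59 ± 0.12, and Jade1, a chromatin factor, at 0.35 ± 0.11. The amino acid transporter gene Slc38a4 was not called, at -0.12 ± 0.073 and a mean count of 9342.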
